A study of Mus musculus with 367 samples.

Results

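Complement genes were followed through single tdTomato-high cells of mouse skin wounds, gene by gene and cell kind by cell kind. The genes were 9 named members of the cascade, C1qa, C1qb, C1qc, C1ra, C1s1, C3, C4b, Serping1 and C3ar1, out of 50600 gene identifiers in the expression matrices. They are named by a list, and every gene of the list was found in all 7 matrices. The cells came from Sm22-Cre;tdTomato mice on a mixed background, wounded at 3 to 8 weeks of age with a square dorsal excision of 1.5 cm a side. Wound tissue was taken at post-wounding day (PWD) 12, 15 or 21, from 2 to 3 tissues per time point, and viable tdTomato-high cells were sorted and captured singly in a C1 microfluidic chip. Sm22 is another name for Tagln, so tdTomato stays on in any cell whose Sm22 promoter has driven Cre, whatever the cell is at the time of capture. The data hold 3 captures of PWD 12, 2 of PWD 15 and 2 of PWD 21, with 367 cells, and no unwounded or untreated control was analysed.

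Complement is a chain of blood and tissue proteins that marks microbes and cell debris for removal. In the classical pathway the recognition molecule C1q, built from the products of C1qa, C1qb and C1qc, binds a target and activates the proteases C1r and C1s. C1s cleaves C4 and C2, the resulting enzyme cleaves C3, and the released fragment C3a acts on cells that carry its receptor, the product of C3ar1. Serping1 encodes C1 inhibitor, which blocks C1r and C1s. Liver makes most of the circulating proteins, while macrophages are a known source of C1q and fibroblasts of C1r and C1s.

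Levels are given in FPKM, which corrects the fragments of a gene for how long its transcript is and for how many fragments its cell had. Totals of FPKM were not set equal between cells, and calls with cells scaled to one total are given at the end. Cells were removed for low depth, for more than 11000 detected genes or for a mitochondrial share above 15% of FPKM, which left 292 of the 367. The shallowest cell left had an estimated 172878 fragments. The kinds were set by 3 genes that are no members. Matrix cells had Col1a1 of at least 1000 FPKM with Rgs5 under 100 and Tyrobp under 50 FPKM. Mural cells had Rgs5 of at least 500 FPKM with Tyrobp under 50 FPKM, and myeloid cells had Tyrobp of at least 500 FPKM. This gave 198 matrix, 57 mural and 26 myeloid cells, and 11 cells of no kind. The median estimated depth was 1454817 fragments in matrix cells, 1227316 in mural cells and 2085127 in myeloid cells.

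Markers outside the rule went with these names. The 7 matrix fibroblast genes checked, among them Dcn, Lum and Pdgfra, each had a mean of at least 10 FPKM in matrix cells, and so did the 7 mural genes, among them Notch3 and Abcc9, in mural cells. All 9 myeloid genes, among them Cd68, Csf1r and the macrophage genes Adgre1 and Mrc1, had such a mean in myeloid cells. Their summed mean was 22855 FPKM there, against 21.6 FPKM in matrix cells and 23.9 FPKM in mural cells. Of the 4 neutrophil genes, S100a8, S100a9 and Retnlg were listed at 0 in every myeloid cell, while Csf3r was detected in 80.8% of them at a mean of 17.0 FPKM. Of the 4 dendritic genes 3 were detected, at a summed mean of 117 FPKM that came almost wholly from Cd209a in 1 cell. The 7 matrix fibroblast genes had a summed mean of 2642 FPKM in myeloid cells, from 16.4 to 10771 FPKM by capture. In mural cells it was 5934 FPKM, from 2151 to 12785 FPKM by capture. Myeloid cells were few and uneven: 11 of the 26 came from capture 2 of PWD 12, and capture 1 of PWD 15 held none.

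The 3 C1q genes lie side by side on chromosome 4 within 18675 bp, and C1ra and C1s1 lie within 29955 bp of each other on chromosome 6. RefSeq (GRCm38.p6) gave a start for 6 of the 9 members, and none was found for C1qa, C4b or Serping1. The bases upstream of the start are shown for C1qb and C1qc, which were detected in the same cells, for C1s1, which was found in the other kinds, and for C3ar1, the receptor of the myeloid cells. All 4 genes are on the minus strand and are read 5′ to 3′ toward the gene. Capitals mark AGGAAG on either strand, a core that ETS-type factors such as the myeloid factor PU.1 can bind.
C1qb (chr4:136886201-136886450, - strand): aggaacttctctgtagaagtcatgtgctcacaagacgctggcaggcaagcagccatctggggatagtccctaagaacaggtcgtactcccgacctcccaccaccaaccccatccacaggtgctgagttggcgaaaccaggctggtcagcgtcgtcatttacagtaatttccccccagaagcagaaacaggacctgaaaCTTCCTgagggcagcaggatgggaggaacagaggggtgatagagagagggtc
C1qc (chr4:136893066-136893164, - strand): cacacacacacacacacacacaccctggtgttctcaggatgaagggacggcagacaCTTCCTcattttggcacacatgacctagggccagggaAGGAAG
C1s1 (chr6:124542360-124542609, - strand): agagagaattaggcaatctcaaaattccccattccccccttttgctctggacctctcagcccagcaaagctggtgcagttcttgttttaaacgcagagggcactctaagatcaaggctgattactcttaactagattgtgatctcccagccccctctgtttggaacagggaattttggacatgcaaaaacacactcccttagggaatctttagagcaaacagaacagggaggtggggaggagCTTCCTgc
C3ar1 (chr6:122856162-122856407, - strand): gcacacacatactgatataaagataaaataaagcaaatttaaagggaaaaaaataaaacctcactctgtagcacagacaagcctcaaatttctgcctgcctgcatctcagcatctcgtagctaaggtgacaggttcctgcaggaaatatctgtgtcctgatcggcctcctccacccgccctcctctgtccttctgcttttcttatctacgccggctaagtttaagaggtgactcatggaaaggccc
The C1qc window was cut where an annotated transcript begins. In the 250 bases before a start, AGGAAG was found for C1qb, C1qc and C1s1, 3 of the 6 members with a start. Over everything searched it was found for 32.3% of 27018 genes, and before 29.5% of all 32841 starts. It was therefore a common run of letters, present both in genes of the myeloid cells and in 1 gene of the matrix and mural cells, and neither a match nor its absence says anything of a factor here.

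C1q was found mainly in the myeloid cells. Each of C1qa, C1qb and C1qc was detected, that is above 0 FPKM, in 25 of 26 myeloid cells (96.2%, 95% exact binomial interval 80.4 to 99.9%), and always together. The mean level was 841 FPKM for C1qa, 4590 FPKM for C1qb and 1208 FPKM for C1qc. C1qb was thus the highest subunit on the per-length scale, and it was the highest in 20 of the 26 cells. The median ratio within a cell was 6.33 for C1qb over C1qa and 4.67 for C1qb over C1qc, while C1qc stood above C1qa in 15 cells only.

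**Figure D1:**
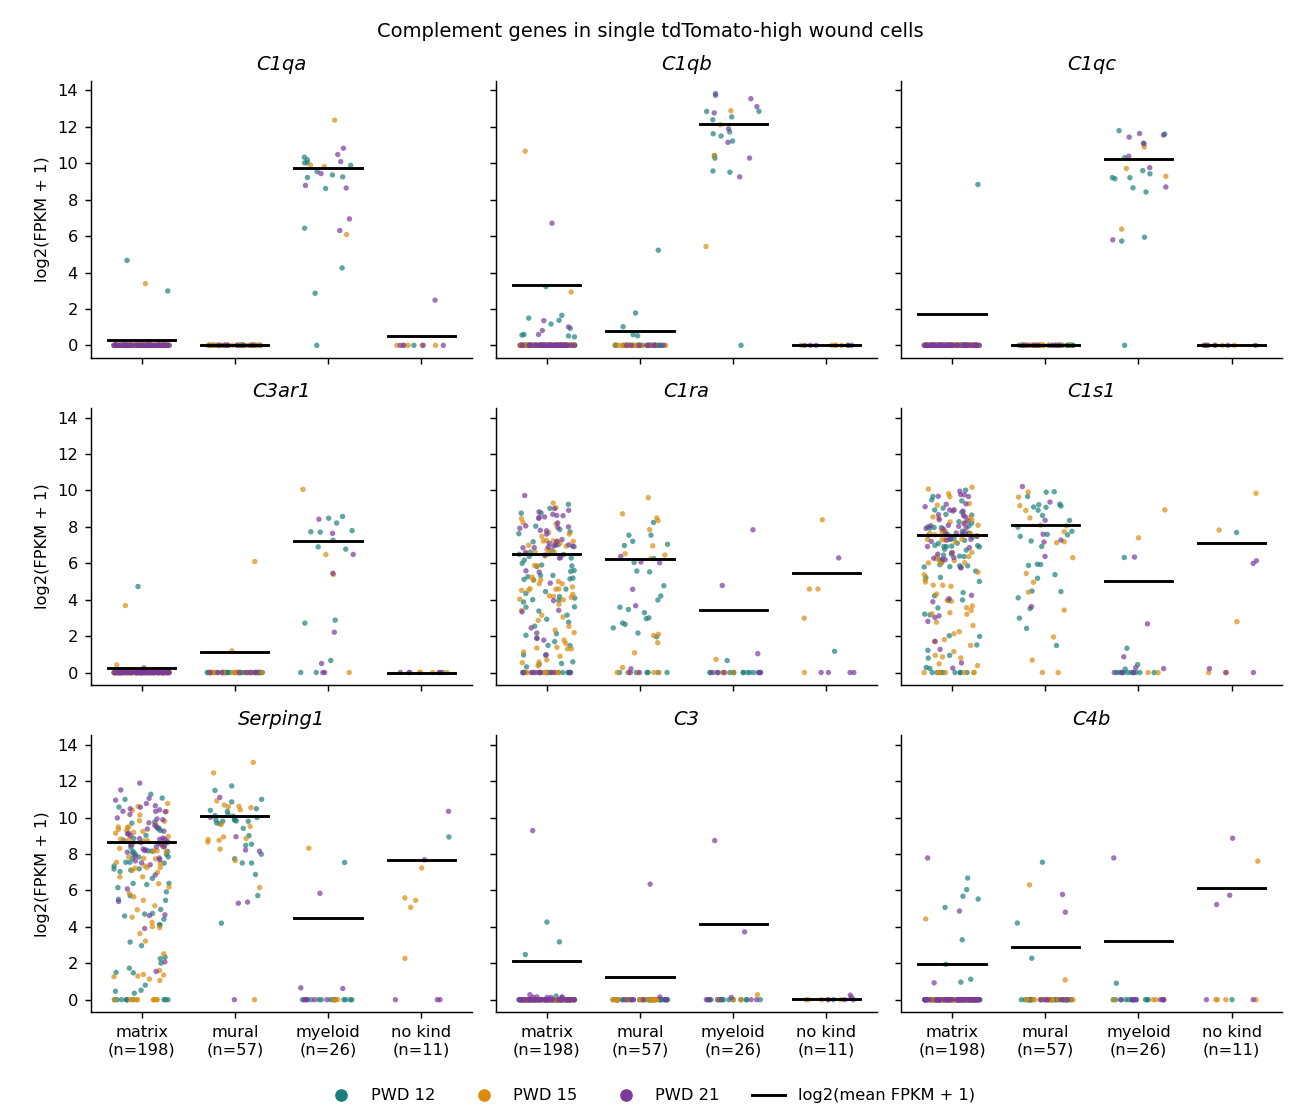
Level of each of the 9 genes in single kept cells, as log2(FPKM + 1), by cell kind, coloured by PWD. The black bar is log2 of the mean FPKM + 1. C1qa, C1qb, C1qc and C3ar1 fill the myeloid column, and C1ra, C1s1 and Serping1 the matrix and mural columns.

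By capture, the mean of C1qb over the myeloid cells was 4073 FPKM in capture 2 of PWD 12, 3359 FPKM in capture 2 of PWD 15, 4313 FPKM in capture 1 of PWD 21 and 9261 FPKM in capture 2 of PWD 21. The mean of C1qa in the same order was 670, 1805, 484 and 1214 FPKM. The mean of C1qc was 1090, 861, 1760 and 1659 FPKM. The order of the captures was different for each subunit, and the PWD 21 captures overlapped the others for C1qa. With 11, 4, 5 and 3 cells behind these means, no test between days was made in myeloid cells. Captures 1 and 3 of PWD 12, with 2 cells and 1 cell, had C1qb means of 2885 and 5990 FPKM.

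**Figure D2:**
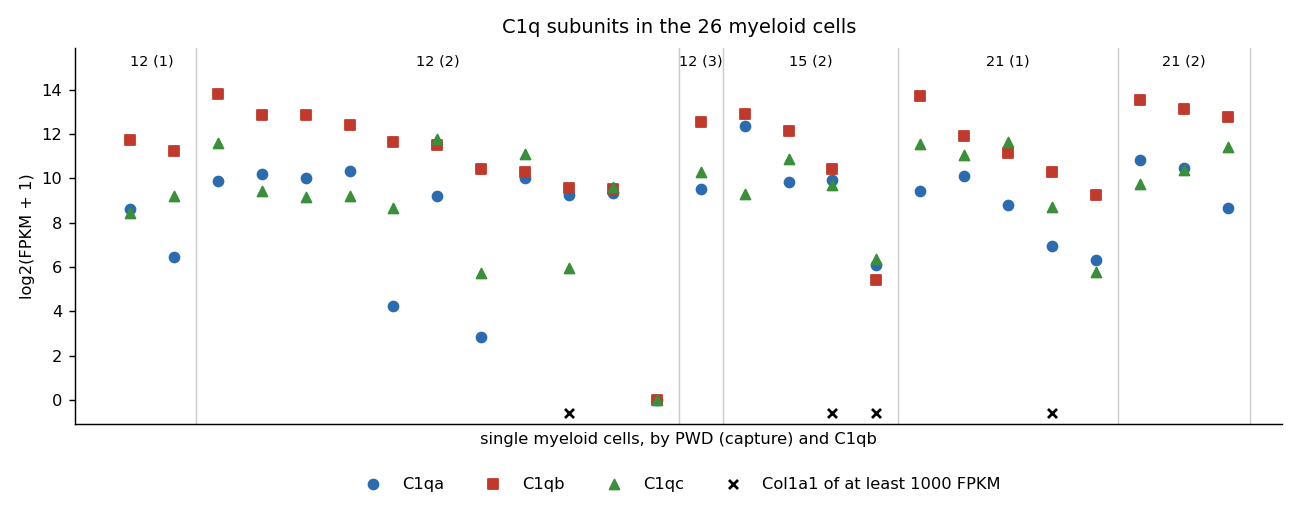
C1q subunits in each of the 26 myeloid cells, as log2(FPKM + 1), grouped by PWD and capture and ordered by C1qb; crosses mark the cells with Col1a1 of at least 1000 FPKM. C1qb is the top symbol in 20 cells, and 1 cell of capture 2 of PWD 12 has all 3 subunits at 0.

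Across the 26 cells the subunits tended to rise and fall together, though loosely. Pearson's r of log2(FPKM + 1) was 0.738 for C1qa with C1qb, 0.760 for C1qa with C1qc and 0.825 for C1qb with C1qc, and 0.763, 0.762 and 0.821 after each capture's mean was removed. Spearman's rho was lower, 0.653, 0.469 and 0.520. Both measures include the cell without C1q, the lowest point of every pair, and how far r rests on it was not tested. Among the 25 cells with C1q the ratios were wide. C1qb over C1qa ran from 0.630 to 219, C1qb over C1qc from 0.512 to 26.3 and C1qc over C1qa from 0.0991 to 22.2. The cells share captures and differ in depth, and r of C1qb with log2 depth was 0.0704.

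The cell without C1q belonged to capture 2 of PWD 12. It had Tyrobp at 3957 FPKM and Cd68 at 658 FPKM, yet Lyz2, lysozyme of macrophages, was at 1.49 FPKM. It had 3041 FPKM of Cd209a, a lectin gene of dendritic cells, which was listed at 0 in the other 25 myeloid cells. The cell with the lowest C1qb above 0, at 42.1 FPKM, came from capture 2 of PWD 15 and had Col1a1 at 6923 FPKM.

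Outside the myeloid cells C1q was rare and low. In matrix cells C1qa was detected in 3 of 198 cells, C1qc in 1 and C1qb in 17 (8.59%, interval 5.08 to 13.4%). In mural cells C1qa and C1qc were found in 0 of 57 cells, a count under which up to 5.26% of cells could still hold them, and C1qb in 5. The C1qb cells were not spread evenly over the captures. Capture 2 of PWD 12 held 13 of these 22 cells, 39.4% of its 33 matrix and mural cells (interval 22.9 to 57.9%). In the other 6 captures the share was 0 to 11.8%.

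The level in those 13 cells was low, with a median of 1.03 FPKM, and in 10 of them it came to under 3 estimated fragments. The same capture held the most myeloid cells, 17 before the cell filters. Whether the traces came from the myeloid cells of that capture was not tested. C1qa and C1qc were listed at 0 in all 33 of these cells.

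A few matrix cells carried a C1q gene at a high level. In capture 1 of PWD 15 a single matrix cell had C1qb at 1622 FPKM with C1qa, C1qc, Lyz2 and Tyrobp at 0, and it made up 92.5% of all C1qb in matrix cells. In capture 1 of PWD 21 another had C1qb at 104 FPKM, again with the other subunits at 0. In capture 3 of PWD 12, 1 matrix cell had C1qc at 456, C1qa at 24.4 and C1qb at 8.38 FPKM together with Lyz2 at 476 and C3ar1 at 25.4 FPKM. It was the only matrix cell with all 3 subunits, and it had Col1a1 at 6394 FPKM, C1ra at 210 FPKM and Tyrobp at 9.96 FPKM.

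The receptor for C3a was likewise found mainly in the myeloid cells. C3ar1 was detected in 21 of 26 myeloid cells (80.8%, interval 60.6 to 93.4%) at a mean of 151 FPKM, in 4 of 198 matrix cells and in 2 of 57 mural cells. The level varied between myeloid cells from 0 to 1067 FPKM. Within myeloid cells it did not follow C1qb closely, with r of 0.157 and, within captures, 0.245.

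The proteases and their inhibitor had the opposite distribution. C1s1 was detected in 183 of 198 matrix cells (92.4%) and 55 of 57 mural cells (96.5%), C1ra in 164 (82.8%) and 43 (75.4%), and Serping1 in 179 (90.4%) and 55 (96.5%). In myeloid cells the counts were 11 of 26 for C1s1, 5 for C1ra and 5 for Serping1. The median depth of myeloid cells was above that of matrix cells in 5 of the 6 captures that held any, and below it in capture 2 of PWD 15, with 882142 against 956026 fragments. Their median number of detected genes was the lowest of the kinds, at 4962 against 5808 in matrix cells, and the part of depth in these shares was not tested.

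Serping1 was the most abundant of the 3, followed by C1s1 and C1ra. The mean in matrix cells was 409 FPKM for Serping1, 184 FPKM for C1s1 and 91.3 FPKM for C1ra, and the medians were 214, 92.2 and 23.3 FPKM. In mural cells the means were 1073, 273 and 73.2 FPKM. The 3 genes were detected together in 143 of 198 matrix cells and 42 of 57 mural cells, and only 4 matrix cells and 1 mural cell had neither protease. C1s1 exceeded C1ra in 136 matrix and 47 mural cells. Levels of single cells spread over the whole range from 0 to 845 FPKM for C1ra in matrix cells, and the top 20 cells held 49.5% of it.

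Cells with more of one protease tended to have more of the other. In matrix cells r of log2(FPKM + 1) was 0.406 for C1ra with C1s1, 0.459 for C1ra with Serping1 and 0.392 for C1s1 with Serping1, and within captures these were 0.354, 0.383 and 0.305. With log2 depth, r was -0.0161 for C1ra and 0.0151 for C1s1 there. In mural cells C1ra with C1s1 gave 0.301, and r was 0.121 for C1ra with Serping1.

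Few cells held C1q together with both C1 proteases. All 5 genes of the C1 complex were detected together in 5 of 26 myeloid cells, 1 of 198 matrix cells and 0 of 57 mural cells. Among the 5 myeloid cells C1ra reached 228 FPKM in 1 cell of capture 2 of PWD 21 that had Col1a1 at 10.0 FPKM, and it was at most 26.5 FPKM in the others.

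Collagen marked the myeloid cells with C1s1 and Serping1. Of the 26 myeloid cells 4 had Col1a1 of at least 1000 FPKM, namely 2047, 6923, 10805 and 6201 FPKM. These 4 cells held 99.0% of the summed C1s1 and 99.8% of the summed Serping1 of myeloid cells. Their C1s1 ran from 78.8 to 488 FPKM, while the highest of the other 22 cells had 5.38 FPKM. Serping1 reached 0.57 FPKM in those 22 cells, and it was 185, 0, 318 and 56.4 FPKM in the 4. All 4 also had the 3 C1q subunits, with a mean C1qb of 857 FPKM against 5269 FPKM in the other 22, and Tyrobp of 1343 to 2708 FPKM. Whether such a well held 1 cell or RNA of more than 1 cell was not tested.

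**Figure D3:**
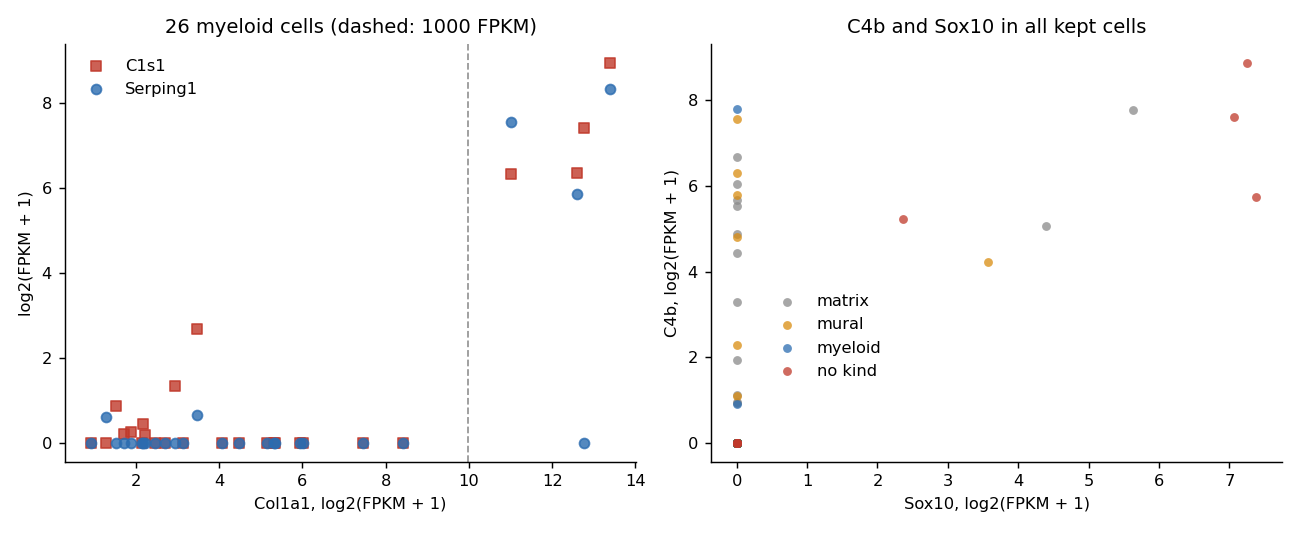
Left, C1s1 and Serping1 against Col1a1 in the 26 myeloid cells, all as log2(FPKM + 1), with the limit of 1000 FPKM dashed; right, C4b against Sox10 in all kept cells by kind. The 4 cells to the right of the limit hold 99.0% of the C1s1 and 99.8% of the Serping1 of myeloid cells, and the 7 cells with Sox10 all have C4b.

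Myeloid and matrix cells of the same capture were compared in the 4 captures with at least 3 cells of both. The mean FPKM of each capture and kind was taken as log2(FPKM + 1), and limma was run over all genes, blocking on the capture. Of the 9 members 4 were higher and 1 lower at an adjusted p under 0.05, where 1.69% of the 13059 genes tested were called higher and 4.9% lower. The median difference over all genes was -1.0 on the log2 scale, so that most genes stood lower in myeloid profiles. The kinds were cut on Col1a1, Rgs5 and Tyrobp in the same cells. For genes that vary with those, the p-values are too favourable. C1qa, C1qc and C3ar1, at 0, 0 and 0.002 in matrix profiles as log2(FPKM + 1), reached the mean needed for testing only through the myeloid profiles. Their calls therefore describe the split and are no separate support for it.

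C1qa and C1qc were listed at 0 in every matrix cell of the 4 captures, so no fold was formed. Their level in myeloid profiles was 9.84 ± 0.85 and 10.33 ± 0.49 (SD, n = 4) as log2(FPKM + 1), with adjusted p of 0.000418 and 0.000228 by limma. C1qb was higher by 11.40 (SE 0.89, adjusted p = 6.17e-05), with 12.24 ± 0.64 against 0.84 ± 1.29, and C3ar1 by 7.13 (SE 1.00, adjusted p = 0.00346). All were higher in 4 of 4 captures. The C3ar1 means of the myeloid profiles were 162, 299, 66.2 and 115 FPKM in the order given for C1qb, and the highest of these held the cell of 1067 FPKM. Each C1q gene passed under 16 of 16 alternatives and C3ar1 under 15, the exception being no filter on low values (adjusted p = 0.0617, range 0.00062 to 0.0617).

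For Serping1 the myeloid means were 16.8, 79.6, 11.3 and 0.367 FPKM in captures 2 of PWD 12, 2 of PWD 15, 1 of PWD 21 and 2 of PWD 21. The matrix means of those captures were 157, 226, 244 and 1002 FPKM, and the ranges did not overlap. The difference was -4.62 on the log2 scale (SE 1.25), lower in 4 of 4 captures, with an adjusted p of 0.0496. This call was at the edge: it was lost when any 1 of the 4 captures was left out, with adjusted p of 0.0554 to 0.139, and 5 of 16 alternatives kept it, with adjusted p of 0.00393 to 0.293 over all of them.

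For C1ra the myeloid means were 0.0527, 0.163, 5.50 and 76.1 FPKM in that order, against matrix means of 41.2, 56.7, 67.7 and 209 FPKM. The groups overlapped through capture 2 of PWD 21, whose myeloid mean rests on 1 cell. The difference of -3.95 (SE 1.11), lower in 4 of 4 captures, did not pass (adjusted p = 0.0555, range over alternatives 0.00689 to 0.221).

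For C1s1 the myeloid means were 7.31, 164, 16.2 and 1.79 FPKM, against 121, 133, 164 and 328 FPKM in matrix cells. Capture 2 of PWD 15 alone was not lower, and it is the capture in which 2 of 4 myeloid cells were rich in Col1a1. The difference of -3.43 (SE 1.18) did not pass (adjusted p = 0.0931, range over alternatives 0.0169 to 0.332).

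**Figure D4:**
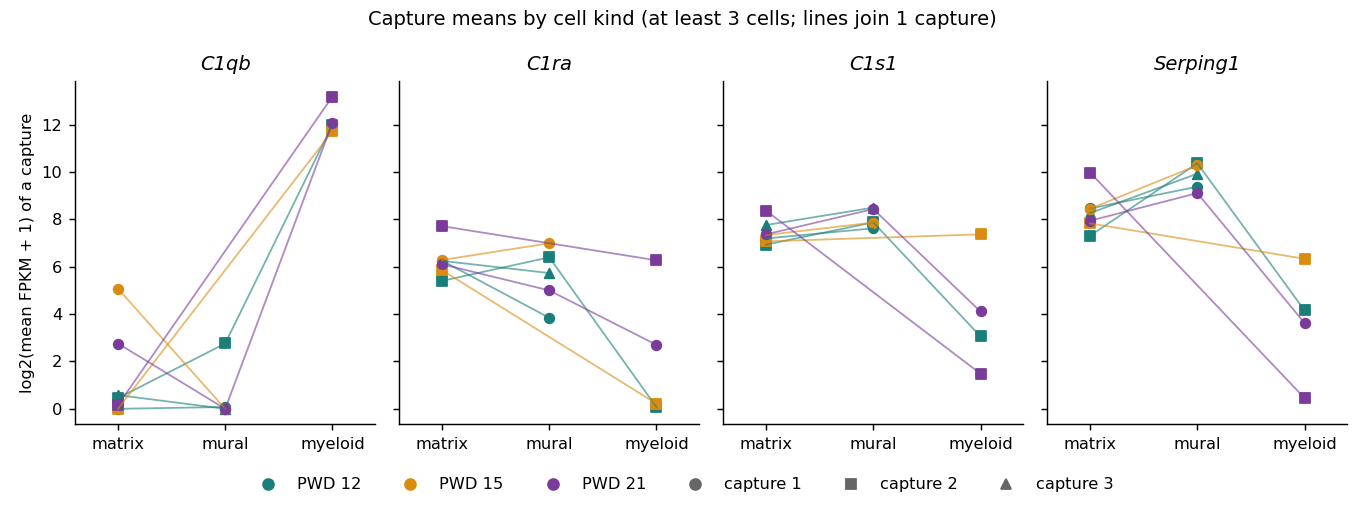
Mean level of C1qb, C1ra, C1s1 and Serping1 by capture and cell kind, as log2(mean FPKM + 1), for profiles of at least 3 cells; a line joins the kinds of 1 capture. C1qb climbs to the myeloid column in all 4 captures, and Serping1 stands higher in mural than in matrix cells in all 5.

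Mural and matrix cells were compared in the same way in 5 captures. Of the 7 members tested, 1 was higher and 0 lower, where 0.948% of 13823 genes were called higher and 0.76% lower. C1qa and C3ar1 were too low to be tested. Beside the count of 0, C1s1 was the only other member with an unadjusted p under 0.05 (limma), and 1976 genes had one.

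Serping1 rose in mural cells. The mural means were 664, 1315 and 971 FPKM in captures 1, 2 and 3 of PWD 12, 1240 FPKM in capture 1 of PWD 15 and 550 FPKM in capture 1 of PWD 21. The matrix means of the same captures were 350, 157, 306, 348 and 244 FPKM, with no overlap. The difference was 1.73 on the log2 scale (SE 0.30, adjusted p = 0.0204, limma), higher in 5 of 5 captures. It passed under 12 of 16 alternatives, with adjusted p of 0.00493 to 0.270, and it was lost without capture 3 of PWD 12 (0.0689) or capture 1 of PWD 15 (0.0899). The highest matrix capture, capture 2 of PWD 21 at 1002 FPKM, held no mural cell and did not enter.

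C1s1 had mural means of 196, 233, 360, 232 and 344 FPKM against 145, 121, 215, 161 and 164 FPKM in matrix cells of the same captures. It was higher in 5 of 5 captures by 0.74 on the log2 scale (SE 0.28) while the ranges overlapped, and it did not pass (adjusted p = 0.252). C1ra had mural means of 13.3, 83.1, 52.1, 126 and 30.9 FPKM and matrix means of 75.3, 41.2, 74.8, 76.8 and 67.7 FPKM, lower in 3 captures and higher in 2 (difference -0.47, SE 0.56, adjusted p = 0.742).

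Mural cells are not free of collagen. Of the 57, 19 had Col1a1 of at least 1000 FPKM. Serping1 of at least 10 FPKM was found in all of these 19 and in 36 of the other 38, and C1s1 of at least 10 FPKM in 16 and in 33. The C1 inhibitor and protease of mural cells were therefore present with Col1a1 under 1000 FPKM too, a limit that still admits collagen.

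Matrix cells of the 3 days were compared to ask whether the proteases change as the wound matures. C1ra had matrix means of 75.3, 41.2 and 74.8 FPKM in the captures of PWD 12, 76.8 and 56.7 FPKM at PWD 15, and 67.7 and 209 FPKM at PWD 21. C1s1 had 145, 121 and 215 FPKM, then 161 and 133 FPKM, then 164 and 328 FPKM. Serping1 had 350, 157 and 306 FPKM, then 348 and 226 FPKM, then 244 and 1002 FPKM. The PWD 15 captures overlapped those of PWD 12 for each gene, and capture 2 of PWD 21 was the highest of all 7 while capture 1 of PWD 21 was not.

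In 1 limma fit of the 7 matrix profiles, 0 of the 7 members tested passed between PWD 15 and PWD 12, where 0% of 13552 genes were called and 791 had an unadjusted p under 0.05. Between PWD 21 and PWD 12, 0 of 7 members passed, where 0.00738% of genes were called, a single gene (Gm2564, named after its value was seen). Both comparisons share the 3 PWD 12 captures. The differences between PWD 21 and PWD 12 were 0.94 for C1ra (SE 0.56, adjusted p = 0.763), 0.57 for C1s1 (SE 0.43, adjusted p = 0.811) and 0.95 for Serping1 (SE 0.57, adjusted p = 0.764). Without capture 2 of PWD 21 they were 0.14, 0.075 and -0.07, and without capture 1 of PWD 21 they were 1.75, 1.07 and 1.96. Those between PWD 15 and PWD 12 were 0.10, -0.09 and 0.13 with SE of 0.56, 0.43 and 0.57, and adjusted p of 1, 0.999 and 0.998.

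**Figure D5:**
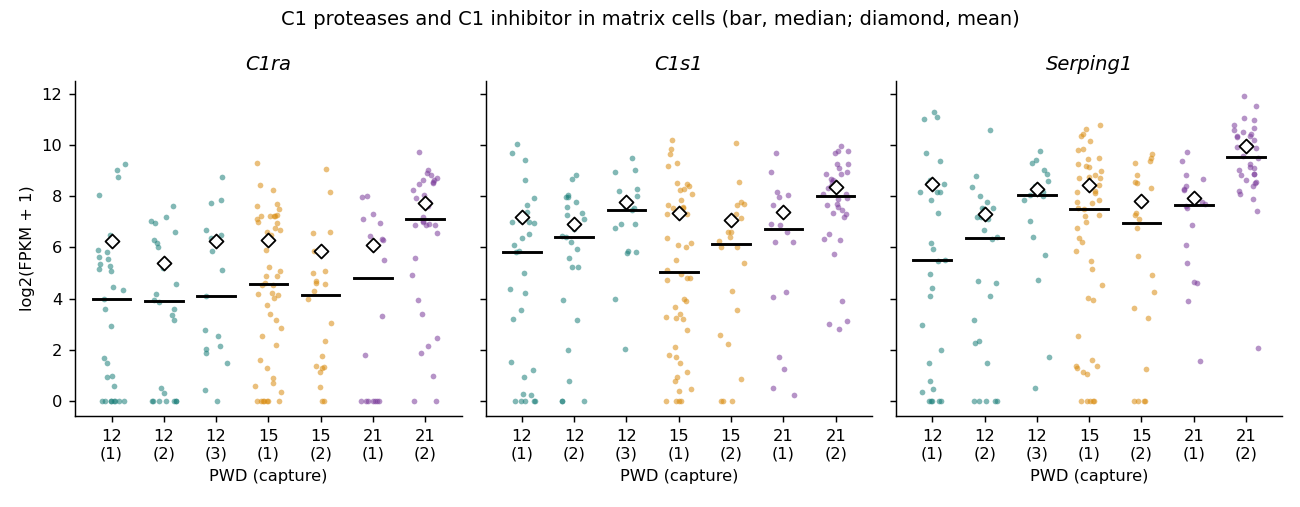
C1ra, C1s1 and Serping1 in single matrix cells, as log2(FPKM + 1), by PWD and capture; the bar is the median and the diamond log2 of the mean FPKM + 1. Capture 2 of PWD 21 stands above the other 6, capture 1 of PWD 21 included.

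In capture 2 of PWD 21 the whole distribution was higher. The median matrix cell had 137 FPKM of C1ra, 254 FPKM of C1s1 and 737 FPKM of Serping1, where the medians of the other 6 captures were at most 27, 173 and 264 FPKM. All of its 34 matrix cells had C1s1 and Serping1, as did all 18 of capture 1 of PWD 21 and all 17 of capture 3 of PWD 12. The median depth of the 34 cells was 2225413 fragments, close to the 2214175 of capture 1 of PWD 21. Their mean Col1a1 of 6334 FPKM lay within the 4426 to 13523 FPKM of the other captures. This capture had no mural cell. The part of the capture itself in these levels was not tested, and with 2 captures at PWD 21 day and capture cannot be told apart.

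C3 and C4b, the substrates further down, were rare and patchy. C3 was detected in 12 of 198 matrix cells (6.06%), 2 of 57 mural cells and 4 of 26 myeloid cells. Single cells made up nearly all of it. A matrix cell of capture 2 of PWD 21 with 625 FPKM held 95.2% of C3 in matrix cells, a mural cell of capture 1 of PWD 21 with 80.4 FPKM held 99.9% in mural cells, and a myeloid cell of capture 2 of PWD 21 with 427 FPKM held 97.1% in myeloid cells. These 3 cells were all of PWD 21. A myeloid cell of capture 2 of PWD 12 with 329 FPKM of C3 was among those removed for depth, at an estimated 154870 fragments. In capture 1 of PWD 21, 6 of 18 matrix cells had C3, at no more than 0.21 FPKM.

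C4b was detected in 13 matrix cells (6.57%), 7 mural cells (12.3%) and 2 myeloid cells. At PWD 12 its matrix means were 7.0, 1.59 and 2.96 FPKM, at PWD 15 they were 0 and 0.937 FPKM, and at PWD 21 13.8 and 0.0265 FPKM. The PWD 15 captures lay below all PWD 12 captures, the PWD 21 captures on either side, and no difference passed (adjusted p = 0.895 and 0.994). The myeloid cell rich in C3 had C4b as well, at 220 FPKM, with C1qb at 11978 FPKM and C3ar1 at 341 FPKM. Between kinds neither C3 nor C4b passed. The differences were 1.08 (SE 0.88) and -0.01 (SE 1.35) for myeloid against matrix cells. For mural against matrix cells they were 0.35 (SE 0.72) and 0.31 (SE 0.84). In the first comparison the SD of C3 between captures was 3.37 in myeloid and 2.07 in matrix profiles.

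The cells of no kind held the most C4b. It was found in 4 of these 11 cells, at 195, 36.4, 467 and 52.3 FPKM. The 4 cells also carried Sox10, a regulator of Schwann cells and melanocytes, at 4.13 to 166 FPKM. Their Col1a1 was 50.8 to 505 FPKM, and C1ra, C1s1 and Serping1 were at most 0, 0.16 and 3.82 FPKM. The other 7 cells of no kind had neither C4b nor Sox10.

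Over all kept cells 7 had Sox10, and each of the 7 had C4b. The other 3 were 2 matrix cells and 1 mural cell, with C4b of 17.5 to 219 FPKM. Of the 20 matrix and mural cells with C4b, 17 had no Sox10. These counts were made after the values were seen and are a description.

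Reads of C1ra, C1s1 and C4b may be shared with near-identical neighbours. C1rb and C1s2 lie next to them on chromosome 6, and their means in matrix cells were 1.50 and 4.51 FPKM against 91.3 FPKM for C1ra and 184 FPKM for C1s1. C4a, beside C4b on chromosome 17, was at 0.0299 FPKM in matrix cells. How RSEM divided shared fragments between the copies was not tested, and the values of these members are uncertain to that degree.

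The wider pathway was read from a list of 44 further genes, of which 9 were listed at 0 in all matrix, mural and myeloid cells, among them Cfd, Vsig4, Mbl1 and C9. Of the 24 tested between myeloid and matrix cells, 6 were higher and 1 lower, where 1.69% of all genes tested were higher and 4.9% lower, with a median difference of -0.95 against -1.0 over all genes. Properdin, Cfp, which stabilises the alternative pathway convertase, was higher by 7.37 (SE 1.08, adjusted p = 0.00442), with a mean of 288 FPKM in myeloid cells. At 0.037 in matrix profiles as log2(FPKM + 1), Cfp was tested only through the myeloid profiles.

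Of the 9 listed receptors 7 were tested and 5 were higher in myeloid cells. These were the C5a receptors C5ar1 (adjusted p = 0.00777) and C5ar2 (4.04, SE 0.89, adjusted p = 0.0297), both chains of the iC3b receptor, Itgam (4.33, SE 1.03, adjusted p = 0.0361) and Itgb2 (4.20, SE 1.08, adjusted p = 0.0447), and Cd93 (5.46, SE 1.31, adjusted p = 0.0365). C5ar1 was listed at 0 in the matrix cells of these captures, with means of 27.5 to 193 FPKM in the myeloid profiles, so no fold was formed. C5ar1 was tested only through the myeloid profiles, and so were C5ar2, Itgam and Cd93. The latter stood at 0.577, 0.030 and 0.015 in matrix profiles as log2(FPKM + 1). Like that of Cfp, the calls of these receptors describe the split and are no separate support for it. Cd93, with a mean of 162 FPKM in myeloid cells, was higher by only 0.04 in 1 capture and by 8.58 in another. The membrane regulator Cd59a, which blocks the membrane attack complex, was the 1 gene that fell, by 4.23 on the log2 scale (SE 1.01, adjusted p = 0.0361), and 1 of 24 is near the share of all genes that were lower.

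Of the 21 tested between mural and matrix cells, 2 were higher and 0 lower, where 0.948% of all genes tested were higher and 0.76% lower. Among them Vtn, vitronectin, which blocks the terminal complex, was higher by 6.78 (SE 0.87, adjusted p = 0.0039), with capture means of 68.9 to 514 FPKM in mural cells. Of the 20 tested between days, 0 passed at either day by limma, where 791 and 968 of all genes had an unadjusted p under 0.05. The mean of C2, the partner of C4, was 57.1 FPKM in matrix, 85.5 FPKM in mural, 12.5 FPKM in myeloid cells and 101 FPKM in cells of no kind. In those 11 cells the regulators Cr1l and Cd59a had means of 532 and 301 FPKM. Their medians were 5.45 and 110 FPKM, and the highest single cells had 3630 and 1008 FPKM.

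The genes most like each member were sought over 16 profiles of a capture and kind, among 11422 genes, by Pearson's r of log2(mean FPKM + 1). The profiles share captures and fall into 3 kinds, so that any gene of the same kind scores high. C1qa was closest to Aif1 (0.995), Adgre1 (0.994) and Clec4a1 (0.993), C1qb to Ms4a4a, Stab1 and Mrc1 (0.980 to 0.974), and C1qc to Fcgr3, Clec4a2 and Fcer1g (1.00 to 0.994). C3ar1 was closest to Ms4a6c (0.989) and Clec4a3 (0.986), followed by C1qa (0.981). C1s1 was closest to Apbb2 (0.964), Tspan3 (0.955) and then Serping1 (0.947), and Serping1 to Cd248 (0.959), Cald1 (0.955) and Apbb2 (0.949). C1ra had no close partner in this set, with Diablo at 0.864, and its r with C1s1 was 0.386. The leading genes were Prr5 (0.956) for C3 and Hook3 (0.868) for C4b, both of which rest on few cells.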

How the data were processed

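Single tdTomato-high wound cells were sequenced after capture on a C1 chip. The deposited values are FPKM per gene and cell, made by the authors with RSEM and Bowtie 1.0.0 on mm10, per the submitters' processing notes. Counts were not used, so no count model was run. Gene names came from GENCODE M21, which held 50376 of the 50600 identifiers. Depth was estimated from the smallest FPKM steps of 9426 single-transcript genes with an assumed fragment of 300 bp, and is approximate. Of 367 cells, 27 were removed for depth, 1 for genes and 47 for mitochondrial share. The kept cells had a median of 1469364 estimated fragments (172878 to 7805509).

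The replicate was the capture. The sources used here do not say that captures of a day came from different mice, so p-values measure the spread between captures, which may be technical. The labels of capture 3 of PWD 12 cite another matrix than the one taken for it, whose number of cells matches that capture. Mean FPKM over the cells of a capture and kind (at least 3 cells) was tested as log2(mean FPKM + 1) with limma 3.58.1 in R 4.3.3, with a variance trend, a mean of at least 1 FPKM, Benjamini-Hochberg adjustment over all genes tested and a threshold of 0.05. These differences understate low genes. Kinds were compared with the capture as a block, days without. Since the kinds were cut on Col1a1, Rgs5 and Tyrobp in the same cells, p-values between kinds are too favourable for genes that vary with those. Other steps used Python 3.11.15, pandas 2.3.3, numpy 2.4.6 and scipy 1.17.1. Shares have exact Clopper-Pearson 95% intervals, and a share of 0 has a limit of 3 counts, both covering counting error only. The scripts were tested on simulated data.

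All 9 members were named throughout. Pathway genes were named if they passed the test or had a mean of at least 100 FPKM in a kind, and the 3 most alike genes of a member were sought by Pearson's r. The members and lists were chosen with earlier results of these data known. Alternatives were the pseudocount, the filters, the scaling, the mean of logs, the limits of the kinds, the variance trend, the block, and each capture left out. No doublet caller was run. Other assays of the study were not analysed here. Some results are not reported here.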

Additional observations from a re-analysis of the deposited data

Results flagged for a closer look

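Of 16 differences between kinds tested for a capture far from the others, 2 held one, where chance gives about 1 in 20. For C1qc, capture 3 of PWD 12 had a mural against matrix difference of -4.80 on the log2 scale, from the single matrix cell with 456 FPKM of C1qc. The other captures had a C1qc difference of 0, so that cell alone fixed the flag. For C3, capture 1 of PWD 21 had a difference of 3.41, from the single mural cell with 80.4 FPKM of C3.

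The 11 cells of no kind, which entered no comparison, had C1ra in 54.5%, C1s1 in 63.6%, C4b in 36.4% and Serping1 in 72.7% of cells. With 11 cells the exact interval is wide, 10.9 to 69.2% for C4b.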

How the results depend on the processing

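The 861 genes called between myeloid and matrix cells became 183 with a pseudocount of 10, 31 with no filter on low values, 485 with all cells, 154 with at least 5 cells per profile, 1365 with cells scaled to one total, 1360 with myeloid cells of Col1a1 under 1000 FPKM (3 captures), and 108 to 340 with 1 capture left out (108 without capture 2 of PWD 12, 340 without capture 2 of PWD 15). The 236 called between mural and matrix cells became 19 with no filter, 657 with the mean of logs, 90 with no variance trend, and 102 to 228 with 1 capture left out. The 0 called between PWD 15 and PWD 12 became 3 at a mean of at least 10 FPKM, 28 with the mean of logs, and 0 to 0 with 1 capture left out. The 1 called between PWD 21 and PWD 12 became 0 with a pseudocount of 0.1, no filter, scaled cells or any capture left out, 3 with doubled limits of the kinds, 5 at a mean of at least 10 FPKM and 70 with the mean of logs. The cause was not tested.

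Signs turned for differences that had not passed. For C4b, myeloid against matrix cells gave 0.37 with a pseudocount of 10, 0.062 with all cells, 0.34 with the mean of logs, 0.23 with doubled limits, 0.31 with myeloid cells of Col1a1 under 1000 FPKM, and -2.07 to 1.28 with 1 capture left out. Mural against matrix cells gave 0.023 for C1qb with the mean of logs, -0.15 for C3 with a pseudocount of 0.1, and with 1 capture left out -0.83 to 0.020 for C1ra and -0.23 to 1.13 for C4b. PWD 15 against PWD 12 gave -0.040 for C1qb with the mean of logs, and with 1 capture left out -0.34 to 4.73 for C1qb, -0.18 to 0.32 for C1ra, -0.27 to 0.14 for C1s1 and -0.22 to 0.44 for Serping1. PWD 21 against PWD 12 gave 0.18 and 0.15 for C4b with a pseudocount of 10 and doubled limits, and with 1 capture left out -0.19 to 2.41 for C1qb, -2.08 to 1.76 for C4b and -0.07 to 1.96 for Serping1.

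Capture numbers shared between days were not taken to pair captures, since deviations of same-numbered captures correlated at -0.0068 to 0.025. With the replicate block, 0 genes were called at either day, and C1s1 gave 0.14 for PWD 15 against PWD 12. Between kinds, no replicate block gave 1236 and 251 calls. Shares of cells with a member moved beyond their interval in 9 of 27 matrix, 3 of 27 mural and 2 of 27 myeloid values.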
